A study of Mus musculus with 6 samples.

Results

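H3K9me2 peaks in gastrocnemius, a calf muscle, were compared between conditional Phf2 knockout mice (CKO) and control mice (Ctrl) by counting them in consecutive windows of 1 Mb along chromosomes 1 to 19 of mm10. CKO mice were Phf2 flox/flox;Acta1 Cre+, and Ctrl mice were Phf2 flox/flox;Acta1 Cre-, so both groups carried the floxed alleles. All were male C57BL/6 mice, 4 weeks old. Acta1 encodes skeletal muscle actin, and a Cre under its control acts in muscle fibres, while vessel, immune, connective tissue and stem cell nuclei of the same muscle keep Phf2. The assay was CUT&RUN, where a nuclease held at the mark by an antibody releases the DNA around it, with 1 H3K9me2 library per genotype. The windows were fixed from position 0, and each peak was placed by its centre. The first 3 Mb of every chromosome held no peak and were left out, as were the incomplete windows at chromosome ends. All 2394 remaining windows are described, and they hold 12418 of the 12508 CKO peaks and 3576 of the 3595 Ctrl peaks on these chromosomes. The same windows were counted in 1 CKO input and 2 Ctrl inputs. A Ctrl H3K4me3 library, titled wild type, served to place active promoters.

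H3K9me2 is a repressive mark laid down mainly by the methyltransferases G9a and GLP (Ehmt2 and Ehmt1). It typically covers wide stretches of gene-poor, late-replicating chromatin, much of it at the nuclear lamina, together with silent gene clusters such as those of olfactory receptors. PHF2 belongs to the JmjC family of histone demethylases; its PHD finger binds H3K4me3, and it has been reported to remove H3K9me2 at the promoters it occupies. Counting by megabase asks whether the mark differs between the genotypes over such wide stretches, in particular windows, or in proportion everywhere.

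The promoter sequences below come from windows described later and show promoters found under H3K9me2 peaks of one genotype alone. Each is the 250 bases before the gene's start, written 5′ to 3′ on the gene's strand, from RefSeq for GRCm38.p6, with every CG dinucleotide in capitals. Prkab1 is rich in CG, and Ilvbl, with 15 CG, is near the median of 14 for promoters of 300 bases. Both carry H3K4me3 in Ctrl, whereas Gm15319 is poor in CG and has no H3K4me3 peak. The promoter of Actc1, the cardiac actin gene, is shown as that of a sarcomere gene, and it has few CG yet carries H3K4me3. No input peak lay on these promoters.
Prkab1, minus strand, chr5:116024429-116024678, under a CKO peak: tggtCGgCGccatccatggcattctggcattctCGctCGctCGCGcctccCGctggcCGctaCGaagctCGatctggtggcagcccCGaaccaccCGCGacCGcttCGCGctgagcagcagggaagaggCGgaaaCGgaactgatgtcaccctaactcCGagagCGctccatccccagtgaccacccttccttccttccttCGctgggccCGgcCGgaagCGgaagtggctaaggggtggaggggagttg
Actc1, minus strand, chr2:114052876-114053125, under a CKO peak: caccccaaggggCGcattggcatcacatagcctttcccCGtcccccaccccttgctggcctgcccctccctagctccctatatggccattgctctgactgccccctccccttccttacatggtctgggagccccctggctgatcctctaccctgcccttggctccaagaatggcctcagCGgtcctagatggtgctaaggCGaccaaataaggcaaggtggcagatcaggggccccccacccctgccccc
Gm15319, minus strand, chr8:20363203-20363452, under a CKO peak: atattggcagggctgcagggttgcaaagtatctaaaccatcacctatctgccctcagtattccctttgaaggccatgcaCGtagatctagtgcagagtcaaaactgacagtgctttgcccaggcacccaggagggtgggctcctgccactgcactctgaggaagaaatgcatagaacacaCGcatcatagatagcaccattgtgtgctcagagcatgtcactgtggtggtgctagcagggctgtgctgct
Ilvbl, plus strand, chr10:78574741-78574990, under a Ctrl peak: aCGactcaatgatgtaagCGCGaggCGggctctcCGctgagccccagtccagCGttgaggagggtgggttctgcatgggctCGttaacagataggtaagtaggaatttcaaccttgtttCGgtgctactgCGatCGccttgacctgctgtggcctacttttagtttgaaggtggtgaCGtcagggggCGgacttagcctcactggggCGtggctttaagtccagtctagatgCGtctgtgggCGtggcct
The windows hold 24, 4, 2 and 15 CG in that order. The promoter of Gm21119 on the same chromosome (chr8:20614677-20614926, plus strand) is identical to that of Gm15319 over all 250 bases, and both lay under CKO peaks, with folds of 6.18 at Gm15319 and 5.43 at Gm21119. A read within these 250 bases fits both copies. Both peaks reach beyond them, where the bases were not compared, so whether the 2 peaks can be assigned to a copy was not tested. The CKO peak on Prkab1, a regulatory subunit gene of the energy sensor AMPK, had a fold of 5.16, that on Actc1 4.16, and the Ctrl peak on Ilvbl 4.70. These folds are the authors' enrichment of a summit over its local background.

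Among 20063 RefSeq promoters of 300 bases (250 before and 50 after the start), the median was 14 CG, and 57.9% held at least 10. The 1208 promoters under a CKO peak alone had a median of 26 CG, 92.8% of them were also under an H3K4me3 peak and 46.6% under a CKO input peak, against 54.5% and 18.1% of all promoters. The 189 under a Ctrl peak alone had a median of 25 CG, with 93.7% under an H3K4me3 peak and 45.0% under a CKO input peak, and the 156 under peaks of both genotypes 28. CG reads the same on both strands, and its count describes the sequence only. Without the promoters under an input or an H3K4me3 peak, 58 were left under a CKO peak alone, with a median of 6 CG, and 9 under a Ctrl peak alone, with a median of 7.

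The lists differ in length and depth. CKO H3K9me2 averaged 5.19 peaks per window with a maximum of 32, and Ctrl H3K9me2 1.49 with a maximum of 20. No peak was found in 124 windows of CKO and in 720 windows of Ctrl. Summits rested on medians of 9 fragments in CKO and 6 in Ctrl, and the genome-wide background coverage was 0.544 and 0.391 fragments per position. The CKO input had 10683 peaks on the same chromosomes at a coverage of 0.371, and the Ctrl inputs had 2999 and 1277 at 0.294 and 0.292. No difference below could be set against a spread between replicates, and none was tested. Intervals given for counts are exact Poisson intervals and those for shares exact binomial intervals, both at 95%, and they cover counting error only. Genotype, list length and library depth cannot be told apart, nor can more marked cells from more mark per cell.

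The label of the tissue was checked against H3K4me3 at gene ends. Of 4 markers of muscle fibres (Acta1, Ckm, Myh4, Ttn) 0 carried such a peak, against 2 of 4 satellite cell markers (Pax7 and Cdh15) and 1 each for endothelial (Kdr), immune (Cd68) and adipocyte (Plin1) markers. Of the fibroadipogenic markers 0 carried a peak. Among the longer lists, counted over the gene body and 2 kb either side and not at the ends alone, an H3K4me3 peak lay in 9 of 12 fast-fibre, 4 of 10 slow-fibre and 7 of 12 shared sarcomere genes. What this says of the cells sampled was not tested. Phf2 itself (chr13:48801750-48870885) had no H3K9me2 peak in its body or within 2 kb in either genotype, and peak lists do not show whether its exons were deleted. Its window, at 48 to 49 Mb of chromosome 13, held 6 CKO peaks and 1 Ctrl peak, beside 6 in the CKO input and 2 and 1 in the Ctrl inputs.

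CKO held more peaks than Ctrl nearly everywhere. It was higher in 2093 windows, equal in 220, of which 91 had no peak in either list, and lower in 81. The median difference was 3 peaks. A window was called gained when CKO had at least 5 peaks more than Ctrl and at least 2 times as many, with a Ctrl count of 0 set to 3, and lost when the reverse held. By this rule 772 windows (32.2%) were gained and 0 were lost. CKO was higher by 10 or more in 102 windows and Ctrl by 3 or more in 2. The rule cuts through a continuous range. CKO led by 4 peaks in 278 windows just outside it, and by 5 peaks in 271 windows, of which 198 were gained.

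The lists differ in length, and an equal length was set for comparison. In the windows the CKO list was 3.48 times as long. When it was shortened to its 3595 peaks with the highest −log10 p and the Ctrl list left whole, 14 windows (0.585%) were gained and 13 (0.543%) were lost. CKO was then higher in 783 windows, equal in 800 and lower in 811. Of the 772 gained windows, 470 were still higher in the shortened CKO list, 162 were equal and 140 were lower. The windows gained at equal length are among the 772 by construction, since shortening only takes CKO peaks away. At q of 1e-05 or less in both lists 132 windows were gained and 0 lost.

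**Figure D1:**
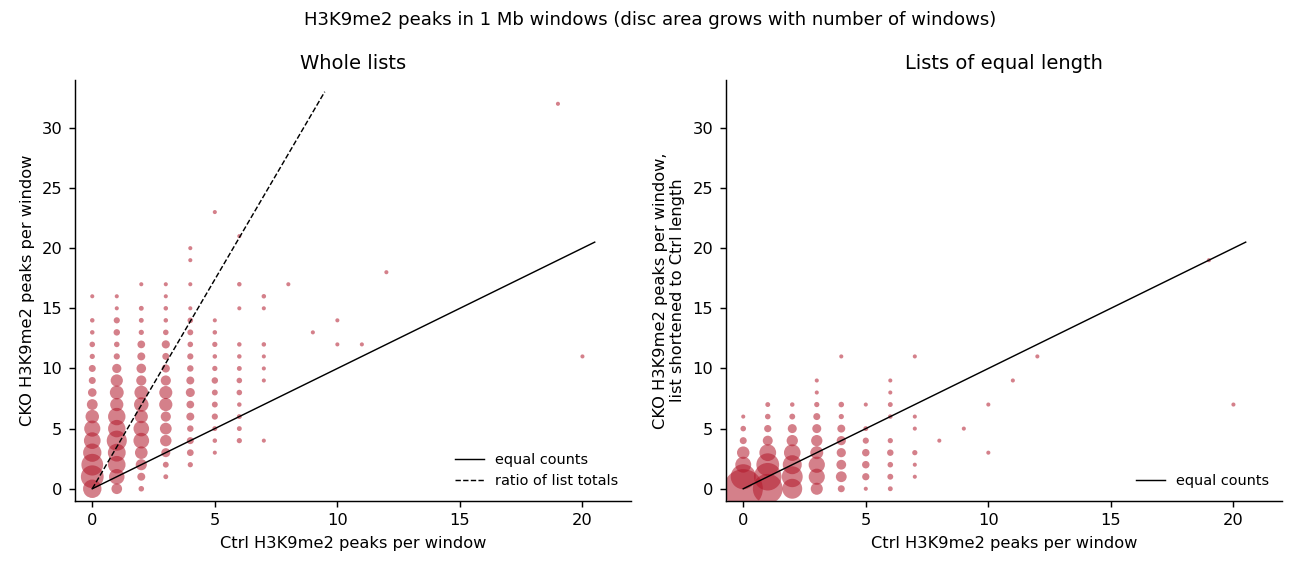
Peaks per 1 Mb window in CKO (vertical) against Ctrl (horizontal), for the whole lists (left) and with the CKO list shortened to the length of the Ctrl list (right), each disc standing for all windows with that pair of counts; the solid line marks equal counts and the dashed line the ratio of the list totals. On the left 2093 of 2394 windows lie above the line of equal counts, and on the right 783 lie above it and 811 below.

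The inputs of the same genotypes differed in the same direction. Under the same rule the CKO input was gained over Ctrl input 1 in 569 windows (23.8%), over Ctrl input 2 in 698 (29.2%) and over their mean in 625 (26.1%), and lost in 0. Ctrl input 1 over Ctrl input 2, of 1 genotype, gave 3 gained windows (0.125%). The windows gained in H3K9me2 were gained in input less often than all windows. Of the 772, 95 (12.3%) were also gained in the CKO input over both Ctrl inputs, a state found in 551 (23.0%) of all windows. Over Ctrl input 1 this was so in 102 (13.2%), against 23.8% of all windows. The CKO input had no peak in 41 of the 772, and in 133 (5.56%) of all windows. It outnumbered CKO H3K9me2 in 44 of the 772, a count kept low by the rule, which asks for many CKO H3K9me2 peaks. Without peaks that overlap any input peak, 522 windows were gained, 517 of them among the 772, and 1 was lost.

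Gained windows were poorer in genes. They held a median of 4 protein-coding genes, against 6 in windows not gained, and 13.7% of them against 9.99% held none. The rule asks for a difference in peaks and the CKO list was longer, so it favours windows with many peaks. Gene-poor windows held more peaks in both genotypes, as given below, so these values do not show where the genotypes differ. Of the CKO peaks in gained windows 20.3% overlapped an input peak (interval 19.4 to 21.3), against 26.9% of CKO peaks in the other windows (25.7 to 28.0). Of these same peaks 9.38% in gained windows (8.70 to 10.1) and 20.1% in the other windows (19.1 to 21.2) overlapped an H3K4me3 peak. Of the CKO peaks 9.57% in gained windows and 12.8% elsewhere overlapped a Ctrl H3K9me2 peak, and of the Ctrl peaks 49.2% and 31.7% overlapped a CKO peak. The overlap shares are bounded by the rule itself, which asks for more CKO than Ctrl peaks. The lower share of input and H3K4me3 peaks goes with gene content, and was not separated from it.

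Peak density followed gene content in both genotypes. The 268 windows without a protein-coding gene averaged 6.33 in CKO (interval 6.03 to 6.64) and 2.02 in Ctrl (1.86 to 2.20). Windows with 1 to 4 genes averaged 6.19 in CKO and 1.82 in Ctrl, those with 5 to 9 genes 5.08 and 1.45, and those with 10 to 19 genes 3.90 and 1.03. The 266 windows with 20 genes or more averaged 3.60 in CKO (3.38 to 3.84) and 0.921 in Ctrl (0.809 to 1.04). Windows without genes thus held 1.76 times as many peaks as the gene-richest windows in CKO and 2.20 times as many in Ctrl. The ratio of CKO to Ctrl was 3.13 in windows without genes and 3.91 in the gene-richest ones, but the order turned at q of 1e-05, where windows without genes held 2.35 times as many peaks as the gene-richest in CKO and 1.70 times as many in Ctrl. As a difference, CKO led by 4.31 peaks per window in windows without genes and by 2.68 in the gene-richest windows. The share of windows gained was 39.6%, 41.8%, 31.5%, 21.0% and 18.4% from the gene-free to the gene-richest class. The rule favours windows with many peaks, as stated above.

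The inputs ran the other way. The CKO input averaged 1.68 peaks in windows without genes and 8.35 in the gene-richest, Ctrl input 1 averaged 0.515 and 1.81, and Ctrl input 2 averaged 0.172 and 0.835. In windows without genes CKO H3K9me2 exceeded the CKO input 3.78 times, and in the gene-richest windows it reached 0.431 of it. Over the 2394 windows, which share libraries and neighbours, the number of genes correlated with CKO H3K9me2 at Pearson r = -0.257 and Spearman rho = -0.344, with Ctrl H3K9me2 at -0.210 and -0.305, and with the CKO input at 0.604 and 0.685. Input-free H3K9me2 peaks kept the order, with 5.25 in CKO and 1.63 in Ctrl per gene-free window, and 2.58 in CKO and 0.628 in Ctrl per gene-richest window.

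**Figure D2:**
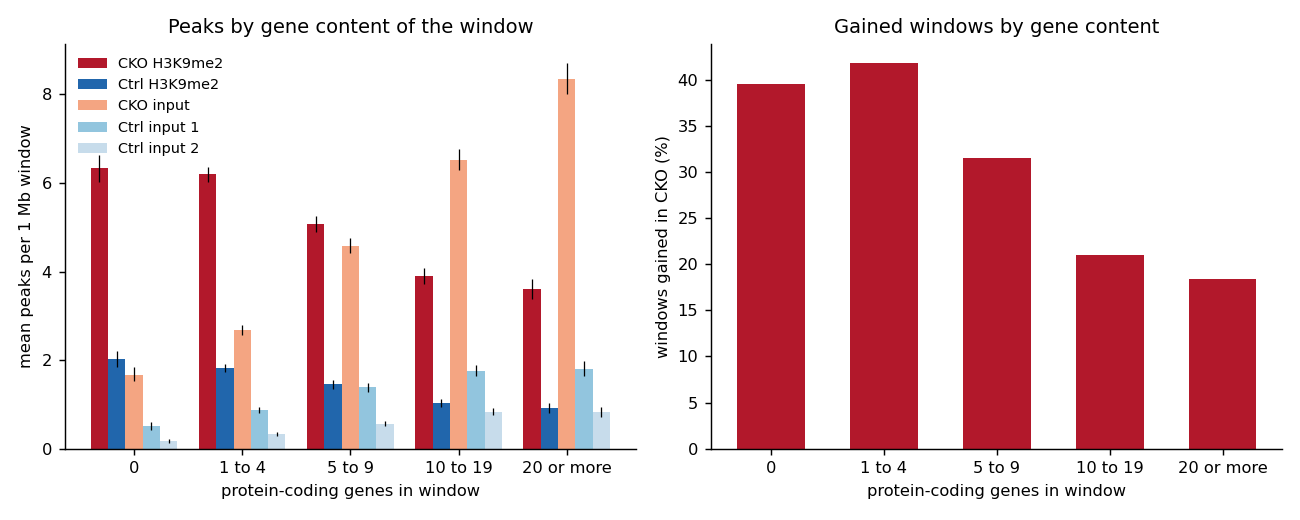
Mean peaks per 1 Mb window in the H3K9me2 and input lists (left, bars with exact 95% Poisson intervals) and the percentage of windows gained in CKO (right), by number of protein-coding genes in the window. H3K9me2 falls from 6.33 to 3.60 peaks in CKO and the CKO input climbs from 1.68 to 8.35 between windows without genes and those with 20 or more.

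Relative to list length, few windows set themselves apart. In the 599 windows with at least 10 peaks in both lists together, a relative gain was called where the share of the CKO list was at least 2 times the share of the Ctrl list, and a relative loss where it was at most 1 part in 2. There were 94 relative gains (15.7%) and 74 relative losses (12.4%). CKO supplied 77.6% of all H3K9me2 peaks of the windows. Among the 599 windows, the exact interval of a window's own CKO share lay above this value in 1 and below it in 13. Those 13 were all relative losses. None of the 94 relative gains had an interval above it. The relative gains had medians of 10 CKO peaks and 1 Ctrl peak, where 1 more Ctrl peak would end the call, and the relative losses medians of 7 and 6. A window with no Ctrl peak needed 21 CKO peaks for a relative gain, and the 24 such windows with 10 or more had at most 16. The 1 window above 77.6% is among these, at 35 to 36 Mb of chromosome 14. By the same rule the CKO input against Ctrl input 1 gave 79 relative gains and 41 relative losses among 384 windows, 20.6% and 10.7%. Against Ctrl input 2 it gave 4 and 57 among 274, 1.46% and 20.8%, and against the mean of both 67 and 20 among 299, 22.4% and 6.69%. The windows of relative gain in H3K9me2 held 658 genes (3.18% of all) and those of relative loss 342 (1.65%).

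The windows were filled alike in part in both genotypes. CKO and Ctrl counts correlated over the 2394 windows at r = 0.505 and rho = 0.503, and without input peaks at 0.402 and 0.436. CKO H3K9me2 and the CKO input correlated at -0.198 and -0.260, and the 2 Ctrl inputs at 0.441 and 0.265. A window resembled its neighbour, with r between adjacent windows of 0.298 in CKO and 0.203 in Ctrl, and 0.184 for the difference between them. At a distance of 5 Mb these were 0.0810, 0.0785 and 0.0179. Gained windows formed 459 runs, 261 of them single windows, 134 of 2, 37 of 3 and 27 of 4 or more.

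The longest run covered 8 Mb at the start of chromosome 14 (3 to 11 Mb), with 88 CKO and 16 Ctrl peaks. It holds 91 protein-coding genes, most of them Gm-numbered models, and the CKO input had 64 peaks there. The next covered 7 Mb of chromosome 3 (55 to 62 Mb) with 61 CKO and 14 Ctrl peaks, including Nbea, which encodes the synaptic trafficking protein neurobeachin, and Dclk1, a doublecortin-like kinase gene. A run of 6 Mb on chromosome 5 (58 to 64 Mb) held 6 genes, 50 CKO and 7 Ctrl peaks, and 11 in the CKO input. A run of 5 Mb on chromosome 3 (31 to 36 Mb) held 54 CKO and 4 Ctrl peaks over 24 genes, among them Sox2 and Pik3ca. Genes of these runs were picked for naming with their values known.

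Chromosomes differed little in the ratio. It lay between 3.03 (chromosome 8) and 4.17 (chromosome 12), and the exact interval of the CKO share excluded the share of all windows in 1 of 19, chromosome 12, with 80.7% (77.7 to 83.4). Gained windows made up 21.8% of chromosome 7 and 22.9% of chromosome 2, against 43.6% of chromosome 3 and 40.2% of chromosome 13. Chromosome 7 has 14.2 protein-coding genes per window and chromosome 3 has 6.28. Along the chromosomes, which are acrocentric in the mouse, the first 10 windows (190 in all) averaged 6.43 CKO and 1.75 Ctrl peaks with 43.7% gained. The last windows, a slightly longer stretch of 209 in all, averaged 4.17 and 1.05 with 25.4% gained. These ends hold 7.47 and 9.55 genes per window. The CKO input averaged 4.35 peaks in the first 10 windows and 5.11 in these last windows.

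**Figure D3:**
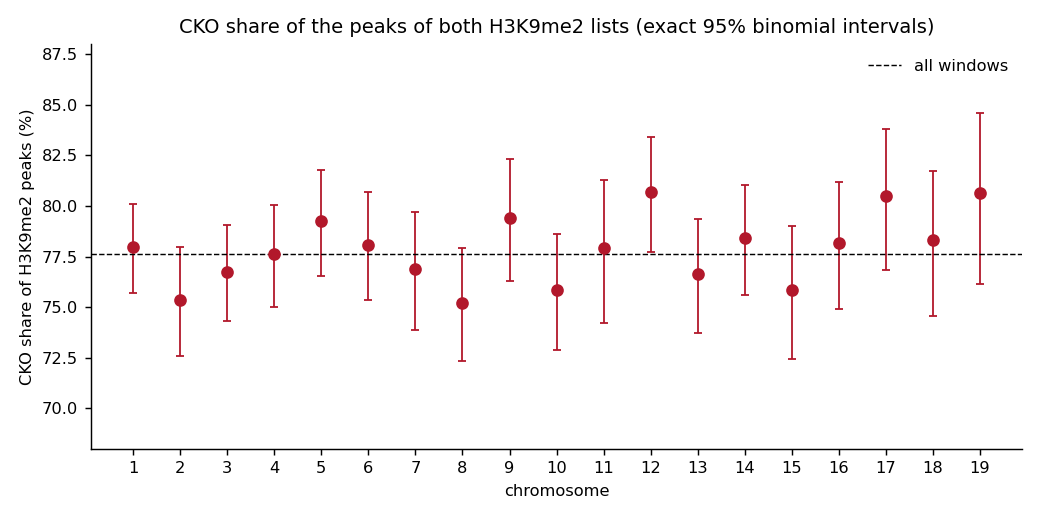
CKO share of all H3K9me2 peaks of both lists on each chromosome, with exact 95% binomial intervals; the dashed line is the share over all windows, 77.6%. Only the interval of chromosome 12 leaves out that line.

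The 15 windows with the largest surplus in CKO were mixed in content. A cluster of at least 5 genes of one family lay in 4 of them (8.52% of all windows), and 2 held no protein-coding gene (11.2% of all windows). The first, at 61 to 62 Mb of chromosome 4, counted 23 in CKO (interval 14.6 to 34.5) and 5 in Ctrl (1.62 to 11.7), with 9 in the CKO input and 4 and 0 in the Ctrl inputs. It holds 10 Mup genes, which encode major urinary proteins secreted by the liver, and 22 of its 24 RefSeq promoters are copied, meaning that at least 50% of their 30-base words recur in another gene's promoter. Its highest peak in CKO was chr4:61644357-61644708 with a fold of 7.50, and in Ctrl chr4:61603463-61603849 with 5.39. The second, at 15 to 16 Mb of chromosome 10, held no protein-coding gene and counted 20 in CKO (12.2 to 30.9) and 4 in Ctrl (1.09 to 10.2), 3 of them at shared places. Only 1 peak lay there in the CKO input, and 1 and 0 in the Ctrl inputs.

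At 35 to 36 Mb of chromosome 14 CKO had 16 peaks (9.15 to 26.0) and Ctrl none (0 to 3.69). The window holds part of Grid1, a delta glutamate receptor gene, and its highest CKO peak, chr14:35403467-35403942, had a fold of 9.27 with 23 fragments at the summit. CKO likewise had 14 peaks and Ctrl none at 93 to 94 Mb of chromosome 3, in the cluster of Tdpoz genes and of epidermal barrier genes such as Flg (filaggrin), and at 106 to 107 Mb of chromosome 12, which holds the kinase gene Vrk1. The CKO input had 3 and 4 peaks in these windows.

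In other windows the inputs also held many peaks. At 3 to 4 Mb of chromosome 9 CKO had 19 peaks and Ctrl 4, beside 21 in the CKO input and 17 and 15 in the Ctrl inputs. The highest peak there, at chr9:3000173-3000797 in CKO, rested on 457 fragments with a fold of 11.5, and its Ctrl counterpart at chr9:3000231-3000765 on 122 with a fold of 10.7. At 147 to 148 Mb of chromosome 4, a cluster of Zfp genes, CKO had 17 peaks and Ctrl 4, beside 19 in the CKO input and 8 in each Ctrl input. At 85 to 86 Mb of chromosome 1, with the interferon-induced nuclear body genes Sp100, Sp110 and Sp140, CKO had 21 and Ctrl 6, beside 14 in the CKO input and 8 and 5 in the Ctrl inputs. Without input peaks these 3 windows held 5, 6 and 13 peaks in CKO and 1, 0 and 1 in Ctrl.

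Relative to list length, the highest of the windows with a Ctrl peak was at 58 to 59 Mb of chromosome 6. It had 16 peaks in CKO and 1 in Ctrl, a share 4.60 times as high in CKO. It holds 6 Vmn1r pheromone receptor genes and the transporter gene Abcg2. It was followed by 69 to 70 Mb of chromosome 17, with 15 in CKO and 1 in Ctrl, around Epb41l3, a cytoskeletal linker gene. At 116 to 117 Mb of chromosome 5, with Prkab1 and the small heat shock gene Hspb8, CKO had 14 and Ctrl 1, and 0 of the 14 overlapped an input peak. The exact interval of the CKO share was 71.3 to 99.9 in the first of these and included 77.6% in all 10 of the windows that rank highest by this ratio. The ratio sets a Ctrl count of 0 to 3, so windows without a Ctrl peak rank lower. At 35 to 36 Mb of chromosome 14, with 16 in CKO and 0 in Ctrl, it was 1.53.

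Of the 15 windows with the largest surplus, 2 held no protein-coding gene and 8 held 4 or fewer. Among all 2394 windows, 268 held none and 790 held 1 to 4. At equal list length 14 of the 15 were still higher in CKO. The windows were chosen by counts of these same peaks, so this adds no separate support. The 15 windows held 272 CKO and 54 Ctrl peaks, of which 41 in each list overlapped the other. Of the CKO peaks 73 overlapped an input peak. The window at 20 to 21 Mb of chromosome 8 was the fullest in CKO, with 32 peaks against 19 in Ctrl, and was not gained, since the ratio of 1.68 was below 2. It holds Gm15319, Gm21119 and the defensin gene Defb33, and 18 of the 32 and 12 of the 19 peaks overlapped an input peak. Copied promoters were found in 6 of the 15 (40%, against 7.94% of all windows). They were found in 10.1% of gained windows and in 6.91% of windows not gained. Windows with such a promoter averaged 6.57 CKO and 1.87 Ctrl peaks, and the others 5.07 and 1.46.

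**Figure D4:**
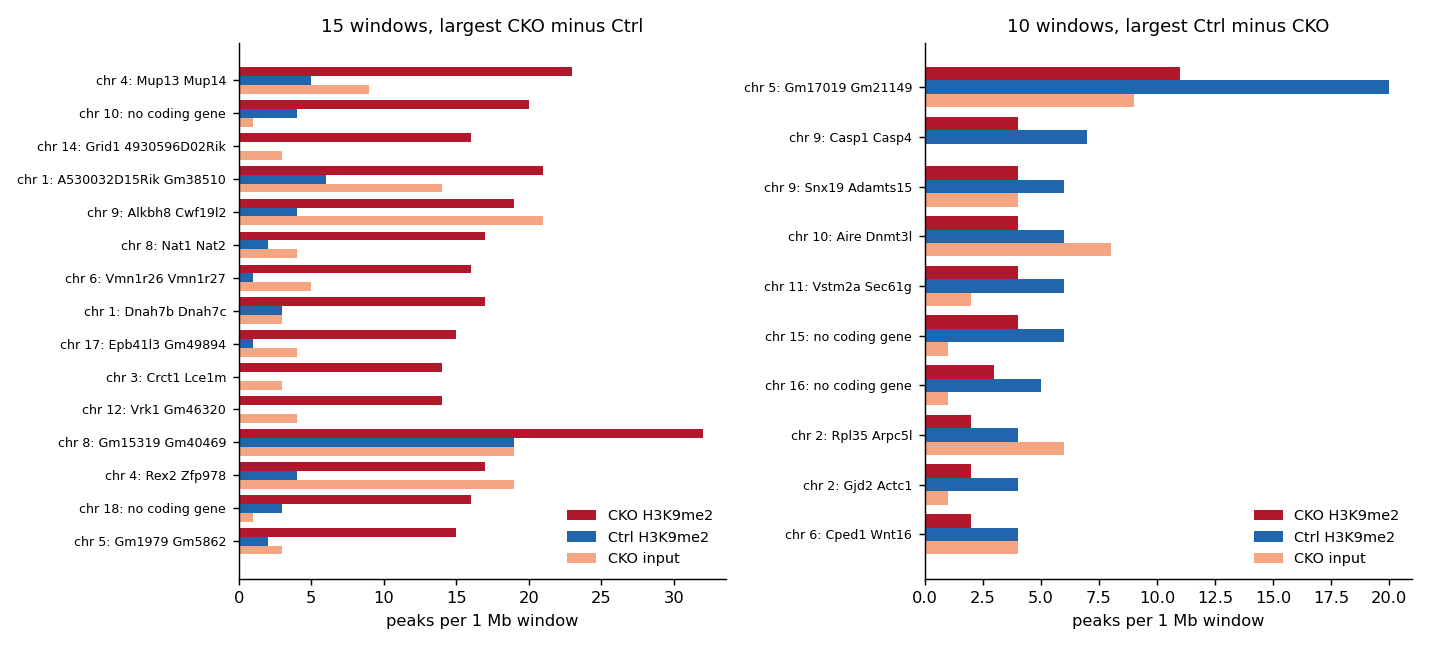
Peaks in CKO H3K9me2, Ctrl H3K9me2 and the CKO input in the 15 windows with the largest CKO surplus (left) and the 10 with the largest Ctrl surplus (right), each named by chromosome and its first genes. On the left CKO holds 14 to 32 peaks and Ctrl 0 to 19, and on the right CKO holds 2 to 11 and Ctrl 4 to 20.

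Ctrl held more peaks than CKO in 81 windows, by 3 or more in 2 of them. At 15 to 16 Mb of chromosome 5 CKO had 11 peaks (interval 5.49 to 19.7) and Ctrl 20 (12.2 to 30.9), and 7 of each were at shared places. The window holds Speer4d and Speer4c, testis-expressed genes of a duplicated family, and 6 of its 7 promoters are copied. The CKO input had 9 peaks and the Ctrl inputs 9 and 8, and without input peaks CKO kept 4 and Ctrl 12. CKO supplied 35.5% of the peaks (19.2 to 54.6). At equal list length it had 7 in CKO and 20 in Ctrl, the largest loss of all windows by that count.

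At 5 to 6 Mb of chromosome 9 CKO had 4 peaks and Ctrl 7, with none in any input. It holds Casp1, Casp4 and Casp12, genes of the inflammatory caspases. At 16 to 17 Mb of chromosome 11, with the receptor gene Egfr, and at 46 to 47 Mb of chromosome 15, which holds no protein-coding gene, CKO had 4 and Ctrl 6. At 114 to 115 Mb of chromosome 2 CKO had 2 and Ctrl 4. The CKO peaks there included that on the Actc1 promoter shown above, and the 4 Ctrl peaks lay in Dph6, a diphthamide synthesis gene. In 7 of the 10 windows with the largest Ctrl surplus the interval of the CKO share lay below 77.6%.

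Other windows with many peaks in both genotypes stood low in CKO relative to list length. At 59 to 60 Mb of chromosome 7, with the imprinted genes Ube3a and Snurf, CKO had 14 and Ctrl 10, and at equal list length 3 and 10. Each input had 3 peaks there. At 55 to 56 Mb of chromosome 8, filled with Gm-numbered models, CKO had 18 and Ctrl 12, and 10 and 8 of these overlapped an input peak.

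The 14 windows gained at equal list length, named after their values were seen, were led by the input-rich window of chromosome 9 above with 11 peaks in CKO against 4. The others had 6 to 9 CKO peaks and 0 to 3 Ctrl peaks and included those of Zfat (7 in CKO and 1 in Ctrl), Alk, a receptor kinase gene (7 and 1), Elavl4, a neuronal RNA-binding protein gene (8 and 3), and Ryr2, the cardiac calcium release channel gene (6 and 1). In these the CKO input had 1 to 7 peaks.

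Most protein-coding genes carried no H3K9me2 peak in either list. Of 20665 genes, counted with 2 kb either side, 2630 had peaks in CKO alone (12.7%), 428 in Ctrl alone (2.07%), 684 in both (3.31%) and 16923 in neither (81.9%). Of the genes with peaks in CKO alone, 342 had more than 1. Their median length was 43.6 kb, against 36.8 kb for Ctrl alone, 148 kb for both and 14.5 kb for neither, so length enters each of these counts. A CKO input peak lay in 55.9% of the genes of CKO alone, 52.6% of Ctrl alone and 29.5% of those with neither. At equal list length the classes were 585 genes in CKO alone, 743 in Ctrl alone and 369 in both. By the rule used for windows, 81 genes (0.392%) were gained and 0 lost, against 6 (0.029%) and 10 (0.0484%) in the CKO input over the Ctrl inputs. The gained windows held 4775 genes, 23.1% of all.

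The genes with the largest CKO surplus were among the longest of the genome, and many are known from neurons. A830018L16Rik (chr1:11413615-11975902) had 14 peaks in CKO and 2 in Ctrl, with 2 in the CKO input and none in the Ctrl inputs. Grid1 (chr14:34820003-35583387) had 11 in CKO and 0 in Ctrl, and 3, 0 and 0 in the inputs. Dlgap2 (chr8:14095776-14853426), a postsynaptic scaffold gene, had 12 in CKO and 1 in Ctrl. Ralyl (chr3:13471655-14182287), an RNA-binding protein gene, had 10 in CKO and 0 in Ctrl, with no peak in any input. Grin2b (chr6:135713221-136173615), a subunit of the NMDA receptor, had 8 in CKO and 0 in Ctrl. These counts are for genes of 460 to 763 kb and do not compare levels between genes.

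Of the 20 genes with the largest surplus, 19 were longer than 400 kb, the median length was 874 kb, and 15 lay in a gained window by their centre. They held 216 CKO and 32 Ctrl peaks, 58 in the CKO input, and 35 of the CKO peaks overlapped an input peak. The adhesion and guidance genes among them were Magi2 (13 in CKO and 3 in Ctrl), Ctnna3 (12 and 2), Cdh12 (10 and 2), Nrxn3 (10 and 2), Astn2 (11 and 3) and Dab1 (12 and 3). Csmd2 and the potassium channel subunit gene Dpp6 had 9 in CKO and 0 in Ctrl. The exception in length was Zfp978 (267 kb), with 10 in CKO and 2 in Ctrl and 9 in the CKO input. At equal list length the 20 genes held 61 CKO peaks, and 15 were still higher than in Ctrl. The genes were chosen by counts of these same peaks, so this adds no separate support.

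Where Ctrl peaks outnumbered those of CKO in a gene, they did so by little. This was so in all 428 genes with peaks in Ctrl alone (2.07%), of which 9 had more than 1 Ctrl peak. Dph6 (chr2:114516416-114655046) had 0 in CKO and 4 in Ctrl, with none in any input. Dpyd, a pyrimidine breakdown gene, had 4 in CKO and 6 in Ctrl. Unc5c, a netrin receptor gene, and Brinp3 had 2 in CKO and 4 in Ctrl, and Oprm1, the mu opioid receptor gene, 1 and 3. Mlip, a lamin-interacting protein gene of muscle, had 0 in CKO and 2 in Ctrl. All 10 genes with the largest Ctrl surplus lay outside gained windows and held 9 CKO and 31 Ctrl peaks in sum.

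**Figure D5:**
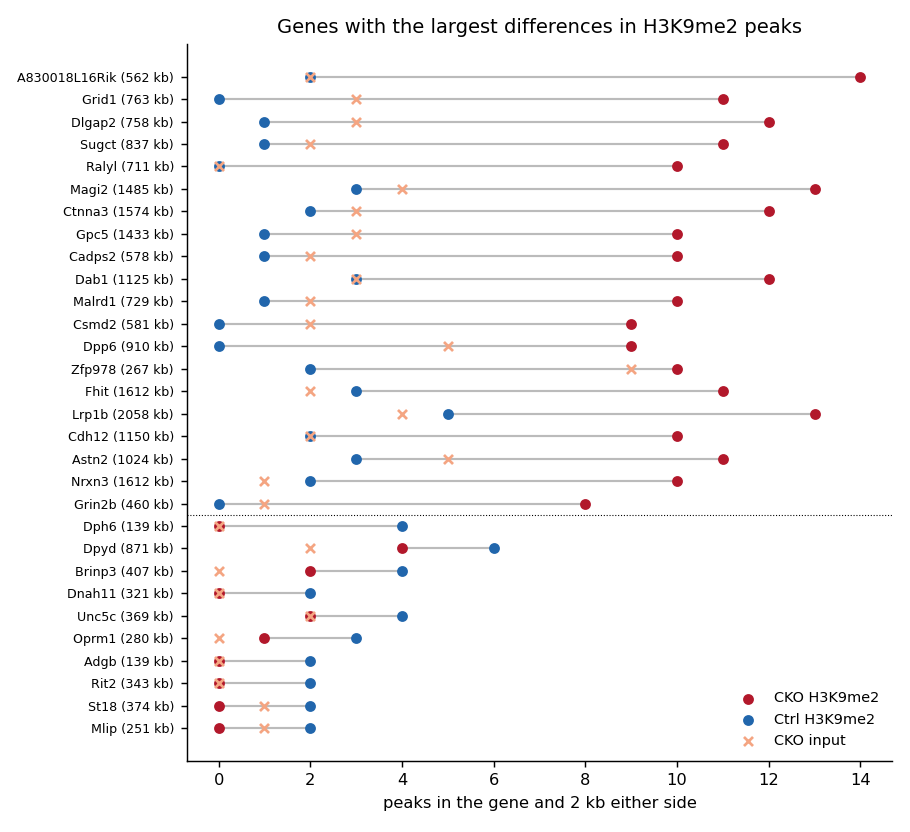
H3K9me2 peaks in CKO and Ctrl (discs) and CKO input peaks (crosses) in each gene and 2 kb either side, for the 20 genes with the largest CKO surplus (above the dotted line) and the 10 with the largest Ctrl surplus (below), with gene length in kb. CKO holds 8 to 14 peaks and Ctrl 0 to 5 in the upper genes, and CKO 0 to 4 and Ctrl 2 to 6 in the lower.

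The share of genes with a peak differed with gene length, so each list below has beside it the share in CKO alone that genes of its members' lengths gave, written as by length. Peaks in CKO alone were found in 6.05% of genes under 10 kb and in 34.9% of genes over 400 kb, and in both genotypes in 0.749% and 52.4%. Per megabase of gene, CKO had 8.42 peaks and Ctrl 2.04 in genes under 10 kb, and 5.37 and 1.46 in genes over 400 kb, a ratio of 4.12 and 3.68.

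Of 22 glutamate and GABA receptor genes, 12 had peaks in CKO alone (54.5%, where genes of the same lengths gave 30.1%), 1 in Ctrl alone (Gabra4), 6 in both and 3 in neither. They held 65 CKO and 11 Ctrl peaks and 27 in the CKO input. The 12 included the NMDA and AMPA receptor subunit genes Grin2a, Grin2b and Gria1. Of the 22, 13 lay in gained windows (59.1%, against 23.1% of all genes). By window these were 11 of the 19 they occupy (57.9%, against 32.2% of all windows). Of windows with 0 and with 1 to 4 genes, 39.6% and 41.8% were gained, and the difference was not tested. Of 20 genes of synaptic adhesion, with a median length of 920 kb, 14 had peaks in both, 1 (Ntm) in CKO alone (5%, by length 32.1%) and 5 in neither. They held 112 CKO and 32 Ctrl peaks, with 13 in CKO and 6 in Ctrl at Cntnap2 (2241 kb), and 5 lay in gained windows (25%).

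Few genes in the clusters of the chemical senses had a peak of their own. For their place in gained windows, the background is 23.1% of all genes and 32.2% of all windows. Of windows with 0 and with 1 to 4 genes, 39.6% and 41.8% were gained. Of 1104 olfactory receptor genes, 485 lay in gained windows (43.9%), in 34 of 80 windows (42.5%). Of the 1104, 29 carried a peak in CKO alone (2.63%), 6 in Ctrl alone and 3 in both. Genes of their length gave 6.15% in CKO alone. The 51 windows with at least 5 olfactory receptor genes averaged 6.67 CKO and 1.92 Ctrl peaks, a ratio of 3.47, where the lists as a whole gave 3.48. Of 352 vomeronasal receptor genes 123 lay in gained windows (34.9%), in 19 of 50 windows (38%). Peaks in CKO alone were carried by 14 (3.98%, by length 8.25%) and in Ctrl alone by 4. Of 72 defensin genes 53 lay in gained windows, but these were 4 of 10 windows (40%). Of the 72, 4 had a peak in CKO alone (5.56%, by length 6.47%). Of 360 numbered Zfp genes 77 lay in gained windows (21.4%), and 41 had peaks in CKO alone, 11.4% against 11.7% by length. Many genes of these clusters are near-identical copies, and a peak in one may come from reads of another.

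The 4 windows with at least 5 keratin-associated protein genes (Krtap, hair proteins), singled out after their values were seen, held 38 CKO peaks and 1 Ctrl peak. Of these windows 3 were gained (75%, against 32.2% of all windows). The CKO input had 28 peaks there and the Ctrl inputs 12 and 1. CKO supplied 97.4% of the H3K9me2 peaks (86.5 to 99.9). The family was picked by these values among many, and the interval does not allow for that choice.

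Muscle genes are given beside the 12.7% of all genes with peaks in CKO alone. Of 12 fast-fibre sarcomere genes, Myl1 (myosin light chain) and Tnnt3 (troponin T) had 1 peak in CKO and 0 in Ctrl, and 10 had none, a share of 16.7% where genes of their lengths gave 8.86%. These are 2 peaks, and no more than the counts is read from them. Of 12 genes of sarcomeres of all fibres Myom2 (M-line myomesin) did so (8.33%, by length 17.6%), and of 10 slow-fibre genes 0 had a peak (by length 10.7%). The Myl1 peak, chr1:66944798-66945173, had a fold of 5.52 and no input peak in the gene. Of 13 myogenic regulators (7.69% in CKO alone, by length 14.6%), Myf6 had 1 peak in CKO and 0 in Ctrl, and Myf5, its neighbour, had 1 in each (folds of 5.60 and 6.17). Of 12 oxidative genes (8.33%, by length 13.3%), Ppargc1a (chr5:51454249-52115853), which encodes the mitochondrial coactivator PGC-1alpha, had 6 in CKO and 0 in Ctrl. The CKO input had 1 and the Ctrl inputs 1 and 0 there, and the gene is 662 kb long. At equal list length it had 1 in CKO.

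In growth signalling, Irs1, which relays insulin signals, had 2 peaks in CKO and 0 in Ctrl, and Igf1r, the IGF-1 receptor gene, 0 and 1, among 12 genes (8.33%, by length 20.9%). Genes of atrophy and autophagy (12), glycolysis (11) and the neuromuscular junction (12) had 0 peaks in either list, where their lengths gave 12.6%, 9.56% and 11.9% in CKO alone. Their inputs were not empty, with CKO input peaks in 8, 2 and 4 of them. Of 20 genes of enzymes and readers of H3K9 methylation, 3 had 1 peak in CKO and 0 in Ctrl (15%, by length 17.1%). These were Trim28, a corepressor gene, and the demethylase genes Kdm3a and Kdm4c, and the peaks of both demethylase genes overlapped an input peak.

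Lists of other tissues and cell types differed among themselves, and the differences were not tested. Of 12 liver genes 6 lay in gained windows (50%, against 23.1% of all genes and 32.2% of all windows), each in a window of its own. Of these 12, 0 had a CKO peak (by length 10.9%), while Cps1 had 1 in Ctrl. Of 10 satellite cell genes, Chodl and Sdc4 had peaks in CKO alone (20%, by length 11.5%) and Myf5 and Calcr in both. Of 10 fibroadipogenic genes Col1a2 had 1 in CKO and 0 in Ctrl, of 9 endothelial genes Tek, of 7 Schwann genes Pmp22 and of 8 adipocyte genes Plin1. Of 10 blood and immune genes Adgre1 had 2 in each genotype. Of 13 housekeeping genes Ppia had 1 in CKO and 0 in Ctrl (7.69%, by length 8.40%). The CKO peaks of Ppia, Plin1 and Sdc4 overlapped an input peak, as did 1 of the 2 of Adgre1. By length the fibroadipogenic, endothelial, Schwann, adipocyte and immune lists gave 15.1%, 19.7%, 12.2%, 11.4% and 12.8% in CKO alone.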

How the data were processed

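Peak lists of 6 CUT&RUN libraries were used. The submitters' processing notes name Bowtie2, MACS2 and the build mm10, without versions. The authors deposited for each peak a fold (the ratio of summit to local background), a −log10 p-value and −log10 q-value, a score, which the authors derived from the q-value, and the deposited offset of the summit in bp. The sources used here do not give how inputs were made, whether they served in peak calling, or whether libraries came from separate animals. The members and gene lists were chosen with earlier results of these data known.

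Peaks were counted in 1 Mb windows and in 20665 RefSeq protein-coding genes of GRCm38.p6 with 2 kb either side; the table gives neither strand nor exons. Fragment counts were recovered from fold and p-value within 0.1% for 99.0% to 99.97% of the peaks of a list. Counts, calls and fragments were tested on simulated data. Named windows were the 15 and 10 with the largest difference either way, the 10 highest and lowest by scaled ratio, the 5 fullest in Ctrl and that of Phf2. Some results under these rules are not reported here. Named genes were Phf2, the 20 and 10 with the largest difference, those of these windows and up to 4 per list. Alternatives were input-free peaks, q of 1e-05, peaks above the median fold, equal list length, other windows, thresholds and flanks, summits, merged peaks and either Ctrl input. Setting a count of 0 to 1 and leaving out gene clusters were added after seeing the data. Software was scipy 1.17.1, pandas 2.3.3, numpy 2.4.6 and matplotlib 3.10.9 under Python 3.11.15.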

Additional observations from a re-analysis of the deposited data

How the results depend on the processing

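The 772 gained, 0 lost, 94 relatively gained and 74 relatively lost windows came, in that order, to 522, 1, 60 and 42 with input-free peaks and 132, 0, 0 and 11 at q of 1e-05. They came to 188, 1, 9 and 14 with peaks at or above the median fold, 14, 13, 7 and 7 at equal list length, and 447, 0, 56 and 14 in windows of 5 Mb. Wider windows are fewer and each holds more peaks, so a lower count there does not mean a lower share of windows. A difference of 3 or 8 gave 1160 or 266 gained, and a combined count of 5 or 15 gave 189 or 16 relative gains and 242 or 20 relative losses. Merged peaks, summits, windows from 0.5 Mb or of 2 Mb, a count of 0 set to 1, and leaving out gene clusters kept each count within 1.5 times. For windows of 2 Mb, which are also fewer, this holds for the counts and not for the shares of windows.

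The 2630 genes of CKO alone, 428 of Ctrl alone and 684 of both came to 1652, 295 and 378 with input-free peaks, 1187, 21 and 93 at q of 1e-05, and 585, 743 and 369 at equal list length. Equal length takes CKO peaks away by their rank in −log10 p and leaves the Ctrl list whole. What moved the counts under each setting was not tested. The window of Phf2 turned from a surplus of 5 in CKO to -1 at equal list length. Input windows gained were 569 to 698 without either Ctrl input. Shifted or wider windows give no value for single named windows. No paired analysis was possible because each genotype had 1 H3K9me2 library. Summits of 6 to 9 fragments limit what a missing peak shows.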
